A study of Mus musculus with 4 samples.

Results

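The genes described here are 32 genes of the p53 pathway and of growth arrest, chosen by symbol from the 22266 genes of the authors' table of TPM (a share of all transcripts, corrected for transcript length), and all 32 were found in it. They fall into 7 regulators and family members, 12 growth arrest and stress genes, 7 death receptors and death effectors, and 6 repair and metabolism genes. Poly(A) RNA was sequenced from female mouse embryonic stem cells (line PGK12.1, kept in serum with leukemia inhibitory factor) in which the Polycomb gene Cbx2 is floxed on both alleles and carries a HaloTag. The OHT group (n = 2) received 1.0 µM 4-hydroxytamoxifen for 48 hours and is labelled a day 2 knockout, and the EtOH group (n = 2) received ethanol and is labelled a day 0 wild type. Both groups carry the tagged floxed alleles and share batch 2. The labels name neither the recombinase nor the deleted exons, and no library here combines the drug with intact Cbx2, so drug, time in culture and deletion cannot be told apart. Separate cultures are not stated for the replicates, and each p-value then reflects only how far these libraries spread, a spread that may be technical.

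p53, encoded by Trp53, is a transcription factor that accumulates after DNA damage and other stress, when it escapes the ubiquitin ligase MDM2. It switches on genes that halt the cell cycle, repair DNA or kill the cell, and it also switches on Mdm2, which closes a feedback loop. Mouse embryonic stem cells are known for abundant p53 mRNA and protein and for a short G1 phase. CBX2 belongs to canonical Polycomb repressive complex 1, which helps keep developmental genes silent.

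The targeted gene was read first. Cbx2 (chromosome 11, 119022962 to 119031270, plus strand, GRCm38) read 0.749 and 1.14 TPM with OHT, against 2.29 and 2.71 TPM with EtOH (log2 fold change -0.85, SE 0.19, limma adjusted p = 0.265), so the OHT pair was the lower without passing the threshold. Reads of exons that were not deleted still count toward TPM. Leaving out either OHT library moved Cbx2 past the threshold, at an adjusted p of 0.0292 with OHT replicate 1 left out and 0.0128 with OHT replicate 2 left out, fits that called 24.6% and 20.6% of all genes tested. With EtOH replicate 1 left out its adjusted p was 0.741, and with EtOH replicate 2 left out it was 1. The 8 embryonic stem cell markers had means of 53.5 to 5514 TPM over the libraries. They summed to 11630 and 10340 TPM with OHT and 8787 and 8714 TPM with EtOH, most of it Dppa5a. That gene alone averaged 6356 TPM with OHT and 4672.5 TPM with EtOH. Of the 8 markers, 6 were higher in both OHT libraries and 0 lower in both, beside 23.1% and 19.4% of all genes tested. The 8 fibroblast and feeder markers summed to 8.74 and 12.5 TPM with OHT and 7.24 and 6.17 TPM with EtOH, most of it Thy1, and Postn was listed at 0 throughout. The 6 primitive endoderm markers summed to 6.21 and 7.53 TPM with OHT and 6.58 and 6.27 TPM with EtOH. Of the 4 tested, 2 were higher in both OHT libraries and 1 was lower in both, beside the same shares of 23.1% and 19.4%. The part of these markers in the results was not tested. In bulk RNA, fewer cells of a type and less RNA per cell cannot be told apart.

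No gene of the 32 passed the threshold. All fold changes are on the log2(TPM + 1) scale, which understates those of low genes. The test was limma with Benjamini-Hochberg adjustment over the 12029 genes that averaged 1 TPM or more, and the threshold was an adjusted p of 0.05. Of the 32 genes 31 were tested, and 0 were called, where 0.0416% of all genes tested were (0.00831% as higher and 0.0333% as lower). At an unadjusted p under 0.05 stood 3 higher genes (Cdkn1a, Perp and Dcxr) and 2 lower ones (Gadd45b and Gadd45g), beside 6.02% and 4.46% of all genes tested. The OHT pair stood wholly above the EtOH pair for 10 of the 31 and wholly below it for 3, where the shares of all genes tested were 23.1% and 19.4%. The median log2 fold change of the 31 was 0.10, beside 0.02 for all genes tested. Set against the EtOH mean, OHT replicate 1 alone gave a median of -0.06 and OHT replicate 2 alone 0.25, of opposite sign. For all genes tested the corresponding medians were -0.09 and 0.14.

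**Figure D1:**
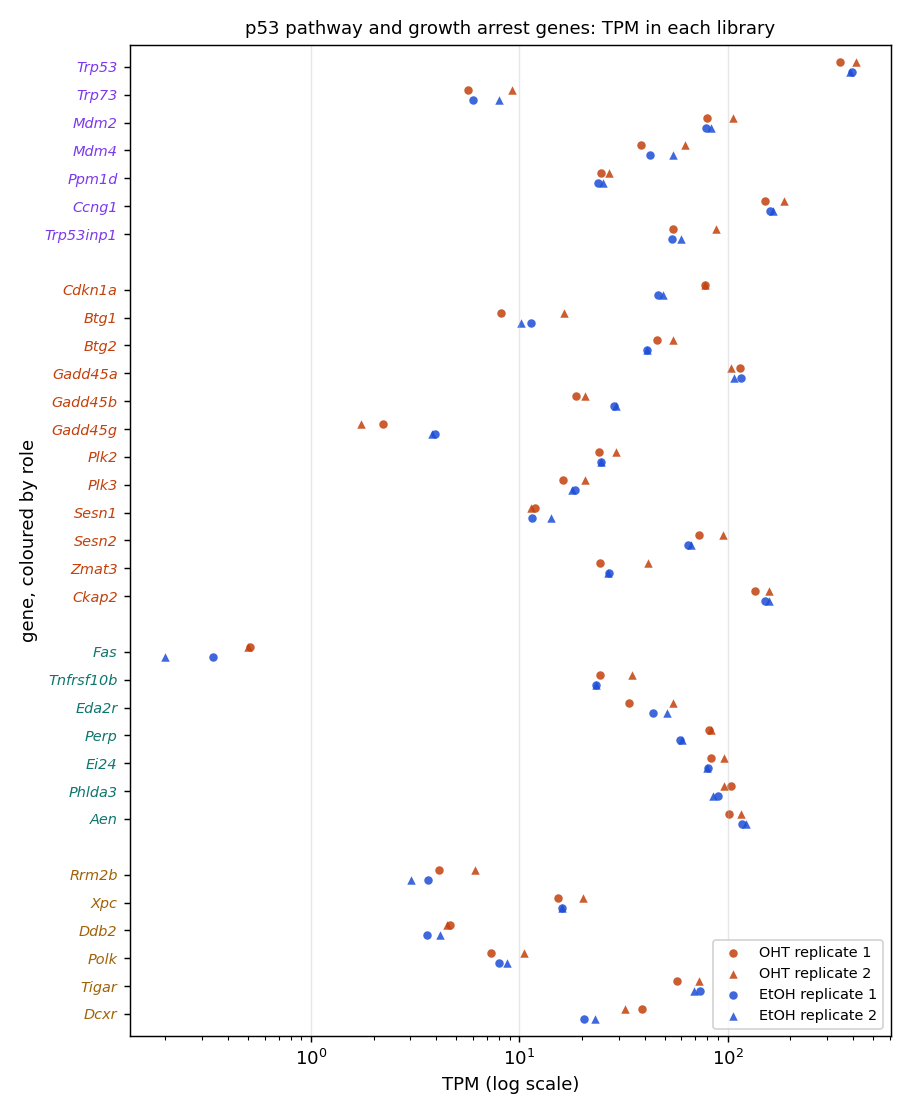
TPM on a log scale (horizontal) of the 32 genes (vertical, coloured by role) in each library, OHT in orange and EtOH in blue, circles for replicate 1 and triangles for replicate 2. Trp53 stands highest at 344 to 413 TPM and Fas lowest at 0.2 to 0.512 TPM. Of the 31 genes tested, 10 have both orange points right of both blue points, Cdkn1a, Perp and Dcxr among them. Both lie left for 3, Gadd45b and Gadd45g among them. The shares of all genes tested were 23.1% and 19.4%.

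Leaving out 1 library changed which genes were called. Without OHT replicate 1 the fit called 13 of the 31 as higher and 2 as lower, beside 24.6% of all genes tested, and without OHT replicate 2 it called 4 as higher and 6 as lower, beside 20.6%. Of these, 5 were called in both fits and in the same direction, namely Cdkn1a, Perp, Dcxr, Gadd45b and Gadd45g, beside 6.01% of all genes tested. Both fits take the spread of the remaining OHT library to be that of the EtOH pair. The 5 are the genes at an unadjusted p under 0.05 with all libraries in, so these fits are no further support for them. With either EtOH library left out, 0 of the 31 were called, beside 0.382% (without EtOH replicate 1) and 0.283% (without EtOH replicate 2) of all genes tested.

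Expression spanned a wide range. The level averaged over the 4 libraries ran between 0.388 TPM for Fas and 384 TPM for Trp53, with a median of 37.8 TPM over the 32 genes. A mean of at least 50 TPM was reached by 13 genes, and 6 stayed under 10 TPM. The repair and metabolism genes had the lowest median level (12.8 TPM), and death receptors and effectors the highest (71.0 TPM).

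Among the regulators none of the 7 had an unadjusted p under 0.05, beside 10.5% of all genes tested. The groups overlapped for all 7, and for 6924 of the 12029 genes tested. Trp53 (chromosome 11, 69580359 to 69591873, plus strand, GRCm38) read 344 and 413 TPM with OHT, against 394 and 384 TPM with EtOH. The EtOH values sit between the OHT values. Its log2 fold change was -0.05 (95% interval -0.32 to 0.23, limma adjusted p = 0.923), with 0.08 when OHT replicate 1 was left out and -0.18 (adjusted p = 0.0429) when OHT replicate 2 was. Mdm2, the ubiquitin ligase that marks p53 for destruction (chromosome 10, 117688875 to 117710758, minus strand), read 79.2 and 106 TPM with OHT, against 79.1 and 83.5 TPM with EtOH. Only OHT replicate 2 stood apart from the other 3 libraries for Mdm2. The fold change was 0.17 (95% interval -0.21 to 0.55, adjusted p = 0.775). It was 0.37, with an adjusted p of 0.0193, when OHT replicate 1 was left out and -0.036 when OHT replicate 2 was.

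Mdm4, the MDM2 relative that covers the activation domain of p53, read 38.3 and 62.1 TPM with OHT, against 42.5 and 54.9 TPM with EtOH (log2 fold change 0.01, 95% interval -0.60 to 0.62). In both groups replicate 2 was the higher library. Mdm2 stood above Mdm4 on the TPM scale in every library. Ppm1d, the phosphatase gene that damps p53 signalling, averaged 25.8 ± 1.55 TPM with OHT and 24.6 ± 0.973 TPM with EtOH (SD, n = 2 each; log2 fold change 0.06). Ccng1, the cyclin G1 gene and a long-known p53 target, averaged 168.5 ± 24.7 TPM with OHT and 162 ± 3.31 TPM with EtOH (0.05). Trp53inp1, which encodes a stress-induced partner of p53, read 54.6 and 87.6 TPM with OHT, against 54.2 and 60.0 TPM with EtOH (0.27, SE 0.22, adjusted p = 0.738). As for Mdm2, OHT replicate 1 lay among the EtOH values and OHT replicate 2 above them. With OHT replicate 1 left out, calls were made for Trp53inp1 (0.61, adjusted p = 0.0116) and Ccng1 (0.20, adjusted p = 0.0474), whose fold changes were -0.061 and -0.10 with OHT replicate 2 left out. Trp73, the p53 family gene, was low at 5.67 and 9.24 TPM with OHT and 6.01 and 7.98 TPM with EtOH.

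The growth arrest group held the gene with the smallest p of all 32. Cdkn1a encodes p21, the inhibitor of cyclin-dependent kinases through which p53 stops the cell cycle (chromosome 17, 29090976 to 29100727, plus strand). It read 77.7 and 77.9 TPM with OHT, against 46.4 and 48.7 TPM with EtOH. The OHT pair was almost equal and lay well above the EtOH pair, a ratio of means of 1.64. The log2 fold change was 0.70 (SE 0.11, 95% interval 0.44 to 0.96), with an unadjusted p of 6.39e-04 and a limma adjusted p of 0.140. It lay between 0.66 and 0.73 over the 4 fits that leave out a library. Cdkn1a had the smallest p with all libraries in, so those fits are no further support for it.

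RefSeq gives Cdkn1a 2 transcription starts, 2790 bases apart, and both promoter windows are shown because this gene had the smallest p (GRCm38.p6, plus strand, 250 bases before to 50 after each start, 5′ to 3′). Capitals mark matches to the p53 half-site consensus and to paired CATG cores, that is CATG, any 6 bases and CATG again. Both strands were searched, the matches overlap, and the motifs were chosen after the windows had been read. The upstream window is chr17:29090729-29091028 and the downstream one chr17:29093519-29093818.
Cdkn1a upstream start: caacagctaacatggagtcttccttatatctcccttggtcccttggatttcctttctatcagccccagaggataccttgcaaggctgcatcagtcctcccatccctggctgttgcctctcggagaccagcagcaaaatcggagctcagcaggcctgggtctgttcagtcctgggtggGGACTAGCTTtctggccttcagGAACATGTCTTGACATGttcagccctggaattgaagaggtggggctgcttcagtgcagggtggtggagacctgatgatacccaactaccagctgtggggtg
Cdkn1a downstream start: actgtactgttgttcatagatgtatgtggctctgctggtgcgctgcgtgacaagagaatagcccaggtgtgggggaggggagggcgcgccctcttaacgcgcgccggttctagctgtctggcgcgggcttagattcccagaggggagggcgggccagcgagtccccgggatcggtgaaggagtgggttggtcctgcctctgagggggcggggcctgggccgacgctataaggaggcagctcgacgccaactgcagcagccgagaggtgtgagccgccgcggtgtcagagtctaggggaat
The paired CATG cores begin 48 bases before the upstream start. That motif was found in 0.712% of 32851 RefSeq windows of this length, and in 1 of the 31 windows of the 25 genes here that have one, this window. The half-site alone was found in 8.36% of all windows and in 12 of those 31, belonging to 11 genes that include Trp53, Mdm2 and Ccng1. The downstream window has no match to either. A match is a description of letters and was not tested for binding.

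The Gadd45 genes, which encode small stress-induced proteins that bind PCNA and MAP3K4, gave differing values. Gadd45a (chromosome 6, 67035096 to 67037457, minus strand), the classical p53 target of the family, read 115 and 103 TPM with OHT, against 116 and 107 TPM with EtOH. The groups overlapped, with a log2 fold change of -0.03 (95% interval -0.30 to 0.23). Gadd45b (chromosome 10, 80930073 to 80932204, plus strand) read 18.6 and 20.7 TPM with OHT, against 28.5 and 29.0 TPM with EtOH. The OHT pair was lower than the EtOH pair, at a ratio of means of 0.684 and a log2 fold change of -0.53 (SE 0.14, unadjusted p = 0.00908, limma adjusted p = 0.308). Over the 4 fits that leave out a library, the log2 fold change of Gadd45b ran between -0.60 and -0.45. Gadd45g (chromosome 13, 51846678 to 51848468, plus strand) was scarce, at 2.23 and 1.74 TPM with OHT, against 3.95 and 3.82 TPM with EtOH. Again the OHT pair lay below the EtOH pair, at a ratio of means of 0.510 (log2 fold change -0.72, SE 0.18, unadjusted p = 0.00741, adjusted p = 0.294). The log2 fold change of Gadd45g ran between -0.83 and -0.60 over the same fits, which are no further support for either gene. The difference between the family members was not tested.

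The promoter windows of the 3 Gadd45 genes are set side by side because the groups overlapped for Gadd45a and not for Gadd45b and Gadd45g (RefSeq, GRCm38.p6, 5′ to 3′ on the strand of each gene). They are chr6:67037358-67037657 on the minus strand for Gadd45a, chr10:80929841-80930140 on the plus strand for Gadd45b and chr13:51846425-51846724 on the plus strand for Gadd45g. Capitals mark CACGTG as well as TATAAA and the p53 half-site, searched on both strands, and none of these motifs was set in advance.
Gadd45a: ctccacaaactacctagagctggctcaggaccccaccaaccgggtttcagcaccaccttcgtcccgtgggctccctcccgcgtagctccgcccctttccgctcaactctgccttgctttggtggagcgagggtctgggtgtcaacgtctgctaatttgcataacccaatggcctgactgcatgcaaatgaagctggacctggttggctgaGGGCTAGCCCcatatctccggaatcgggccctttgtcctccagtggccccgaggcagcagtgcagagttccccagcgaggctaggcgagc
Gadd45b: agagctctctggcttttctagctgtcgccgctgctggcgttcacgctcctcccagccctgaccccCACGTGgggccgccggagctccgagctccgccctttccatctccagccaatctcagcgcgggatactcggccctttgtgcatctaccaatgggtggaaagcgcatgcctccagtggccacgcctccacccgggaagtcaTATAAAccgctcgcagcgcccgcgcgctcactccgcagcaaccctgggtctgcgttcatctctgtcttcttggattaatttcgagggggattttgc
Gadd45g: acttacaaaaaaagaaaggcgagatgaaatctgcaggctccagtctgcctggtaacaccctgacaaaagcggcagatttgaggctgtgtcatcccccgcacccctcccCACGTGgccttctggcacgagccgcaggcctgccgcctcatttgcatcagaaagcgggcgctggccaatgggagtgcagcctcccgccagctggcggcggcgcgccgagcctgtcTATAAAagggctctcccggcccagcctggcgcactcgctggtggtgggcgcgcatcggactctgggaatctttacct
The windows of Gadd45b and Gadd45g each hold CACGTG (185 and 142 bases before the start) and TATAAA (46 and 27 bases before it). That of Gadd45a holds neither and has 1 half-site match, 40 bases before the RefSeq start. By the gene coordinates given above, from a different annotation, this match lies inside the gene. Over all 32851 windows, CACGTG was found in 7.15% and TATAAA in 13.6%, and the share with both was not computed. Among the 25 genes with a window, 6 hold CACGTG and 5 hold TATAAA, and Trp53 and Eda2r, whose groups overlapped, also hold both.

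**Figure D2:**
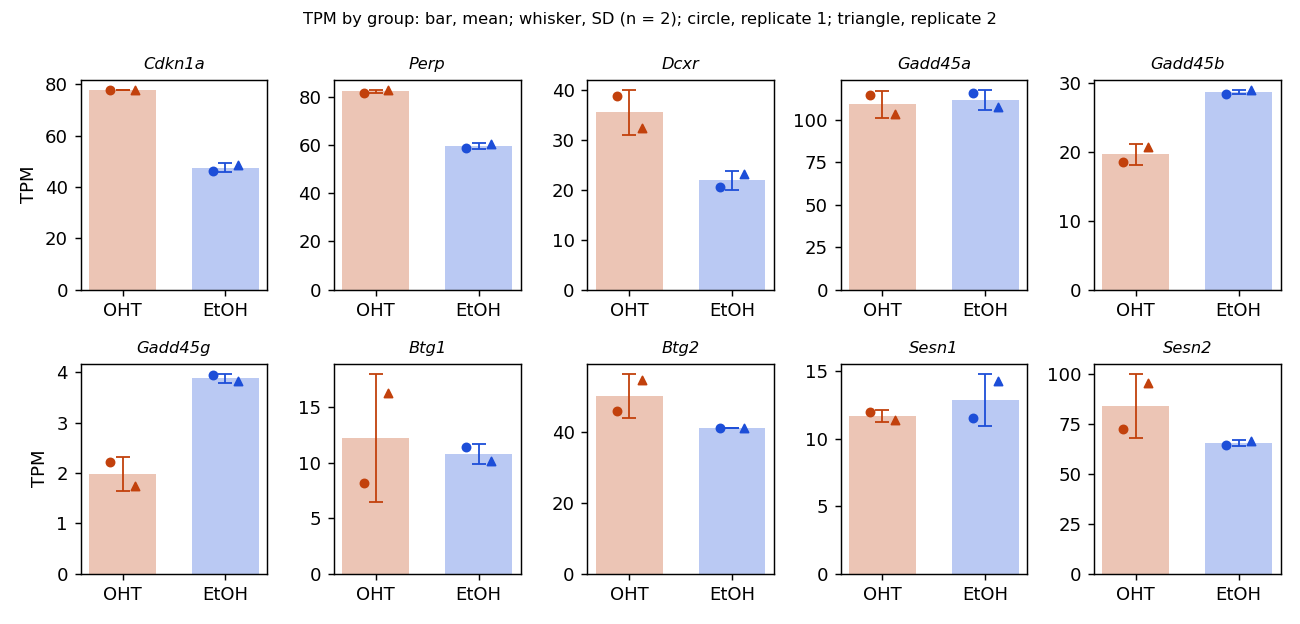
TPM (vertical, starting at 0) of Cdkn1a, Perp and Dcxr and of the Gadd45, Btg and Sesn families, OHT left and EtOH right; bars are means, whiskers the SD (n = 2 each), circles replicate 1 and triangles replicate 2. The OHT points of Gadd45b and Gadd45g lie under the EtOH points while those of Gadd45a overlap, and Btg1 ranges between 8.16 and 16.3 TPM within the OHT pair alone.

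In the other families, too, members gave differing values, with no test between them. Btg2, an antiproliferative gene that p53 switches on, read 45.8 and 54.5 TPM with OHT, against 41.1 and 41.0 TPM with EtOH (log2 fold change 0.28, SE 0.13, limma adjusted p = 0.543). Both OHT libraries were higher. Its relative Btg1 read 8.16 and 16.3 TPM with OHT, against 11.4 and 10.2 TPM with EtOH, and here the OHT libraries lay on either side of the EtOH pair. Sesn2, which encodes a stress-induced restraint on mTORC1 and is also a known target of the stress factor ATF4, read 72.7 and 95.5 TPM with OHT, against 64.3 and 66.6 TPM with EtOH (0.34, SE 0.15, adjusted p = 0.509). Its relative Sesn1, a p53 target, overlapped between groups at 11.7 ± 0.439 TPM with OHT and 12.9 ± 1.93 TPM with EtOH (SD, n = 2 each; log2 fold change -0.12). The calls of Btg1 (0.56, adjusted p = 0.0279), Btg2 (0.40, 0.0202), Sesn2 (0.54, 0.00942) and Zmat3 (0.62, 0.0116) were made, of the 4 fits that leave out a library, only in that without OHT replicate 1. With OHT replicate 2 left out the fold changes were -0.36 for Btg1, 0.15 for Btg2, 0.15 for Sesn2 and -0.12 for Zmat3.

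The polo-like kinase genes Plk2 and Plk3 averaged 26.6 ± 3.38 and 18.4 ± 3.08 TPM with OHT, against 24.6 ± 0.00595 and 18.2 ± 0.518 TPM with EtOH (SD, n = 2 each), with fold changes of 0.10 and 0.01. Zmat3, an RNA-binding zinc finger gene, read 24.5 and 41.6 TPM with OHT, against 27.0 and 26.5 TPM with EtOH. Ckap2, a microtubule-associated gene of mitosis, stood high at 146 ± 16.1 TPM with OHT and 155 ± 5.77 TPM with EtOH (SD, n = 2 each; -0.09). Of the 12 growth arrest genes, 3 had the OHT pair wholly above the EtOH pair and 2 wholly below it, close to the 23.1% and 19.4% of all genes tested, and the median of the 12 was 0.05.

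Of the death receptors and effectors, 6 of 7 were tested. Perp, a p53-activated membrane protein gene of desmosomes and cell death (chromosome 10, 18845020 to 18857073, plus strand), read 81.8 and 82.8 TPM with OHT, against 58.8 and 60.6 TPM with EtOH. Each pair was tight and the OHT pair was the higher, at a ratio of means of 1.38 (log2 fold change 0.46, SE 0.10, unadjusted p = 0.00463, limma adjusted p = 0.267). Over the 4 fits that leave out a library, the log2 fold change of Perp ran between 0.43 and 0.48. Fas, the classical death receptor gene, was too low to test, at 0.512 and 0.499 TPM with OHT and 0.341 and 0.200 TPM with EtOH. Tnfrsf10b, the TRAIL receptor gene, read 24.4 and 34.8 TPM with OHT, against 23.4 TPM in both EtOH libraries (0.31, SE 0.19, adjusted p = 0.649). Eda2r, the ectodysplasin A2 receptor gene, read 33.8 and 54.5 TPM with OHT, against 43.7 and 51.3 TPM with EtOH, so that the OHT values enclosed the EtOH values.

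Phlda3, an inhibitor of AKT, averaged 100.1 ± 5.55 TPM with OHT and 87.2 ± 3.37 TPM with EtOH (SD, n = 2 each; log2 fold change 0.20), and Ei24, an endoplasmic reticulum protein gene, 89.3 ± 8.83 TPM with OHT and 80.2 ± 0.783 TPM with EtOH (0.15). Aen, a p53-induced nuclease gene, was the one effector with both OHT libraries lower, at 101 and 116 TPM with OHT against 117 and 123 TPM with EtOH (-0.15, SE 0.11, adjusted p = 0.709). Of the 6 tested, 4 had the OHT pair wholly above the EtOH pair and 1 wholly below it, beside 23.1% and 19.4% of all genes tested, and the median was 0.17. Leaving out OHT replicate 1 gave calls for Tnfrsf10b (0.55, adjusted p = 0.0152) and Ei24 (0.25, 0.0375), whose fold changes were 0.061 (0.659) and 0.051 (0.592) with OHT replicate 2 left out. Leaving out OHT replicate 2 gave calls for Eda2r (-0.47, 0.0289), Phlda3 (0.25, 0.0428) and Aen (-0.24, 0.0399), whose fold changes were 0.20, 0.14 and -0.054 with OHT replicate 1 left out.

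Among repair and metabolism genes the largest difference was that of Dcxr, a reductase gene of xylulose and dicarbonyls (chromosome 11, 120725399 to 120727281, minus strand). It read 38.7 and 32.3 TPM with OHT, against 20.6 and 23.1 TPM with EtOH. The OHT pair was wider than the EtOH pair but clear of it, at a ratio of means of 1.62 (log2 fold change 0.67, SE 0.15, unadjusted p = 0.00479, limma adjusted p = 0.267). Over the 4 fits that leave out a library, the log2 fold change of Dcxr ran between 0.54 and 0.80. Its promoter window, the remaining one of a gene under an unadjusted p of 0.05, is chr11:120727235-120727534 on the minus strand (RefSeq, GRCm38.p6). It has no match to any of the 4 motifs and so no capitals.
Dcxr: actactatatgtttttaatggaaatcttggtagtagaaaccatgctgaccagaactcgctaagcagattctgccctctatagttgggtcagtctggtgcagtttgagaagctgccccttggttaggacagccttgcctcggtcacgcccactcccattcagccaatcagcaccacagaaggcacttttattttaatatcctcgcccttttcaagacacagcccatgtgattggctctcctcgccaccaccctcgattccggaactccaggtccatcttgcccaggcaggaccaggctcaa

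Rrm2b, the p53-induced small subunit of ribonucleotide reductase, read 4.11 and 6.15 TPM with OHT, against 3.63 and 3.03 TPM with EtOH (log2 fold change 0.48, SE 0.23, limma adjusted p = 0.531), with both OHT libraries higher. Its fold change was 0.73 (adjusted p = 0.0259) when OHT replicate 1 was left out and 0.24 (0.309) when OHT replicate 2 was. Ddb2, which recognises ultraviolet lesions, read 4.65 and 4.50 TPM with OHT, against 3.60 and 4.17 TPM with EtOH (0.19, SE 0.18). Xpc, another lesion sensor, overlapped at 17.8 ± 3.42 TPM with OHT and 16.1 ± 0.0661 TPM with EtOH (SD, n = 2 each). The lesion-bypass polymerase gene Polk overlapped as well, at 8.95 ± 2.26 TPM with OHT and 8.36 ± 0.517 TPM with EtOH. Tigar, a p53-induced regulator of glycolysis, read 57.2 and 73.1 TPM with OHT, against 73.5 and 68.7 TPM with EtOH (-0.13, 95% interval -0.49 to 0.23), and -0.31 without OHT replicate 2 (adjusted p = 0.0332) but 0.040 without OHT replicate 1. The median of the 6 was 0.16, and the OHT pair was wholly above the EtOH pair for 3 and wholly below it for 0, beside 23.1% and 19.4% of all genes tested.

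**Figure D3:**
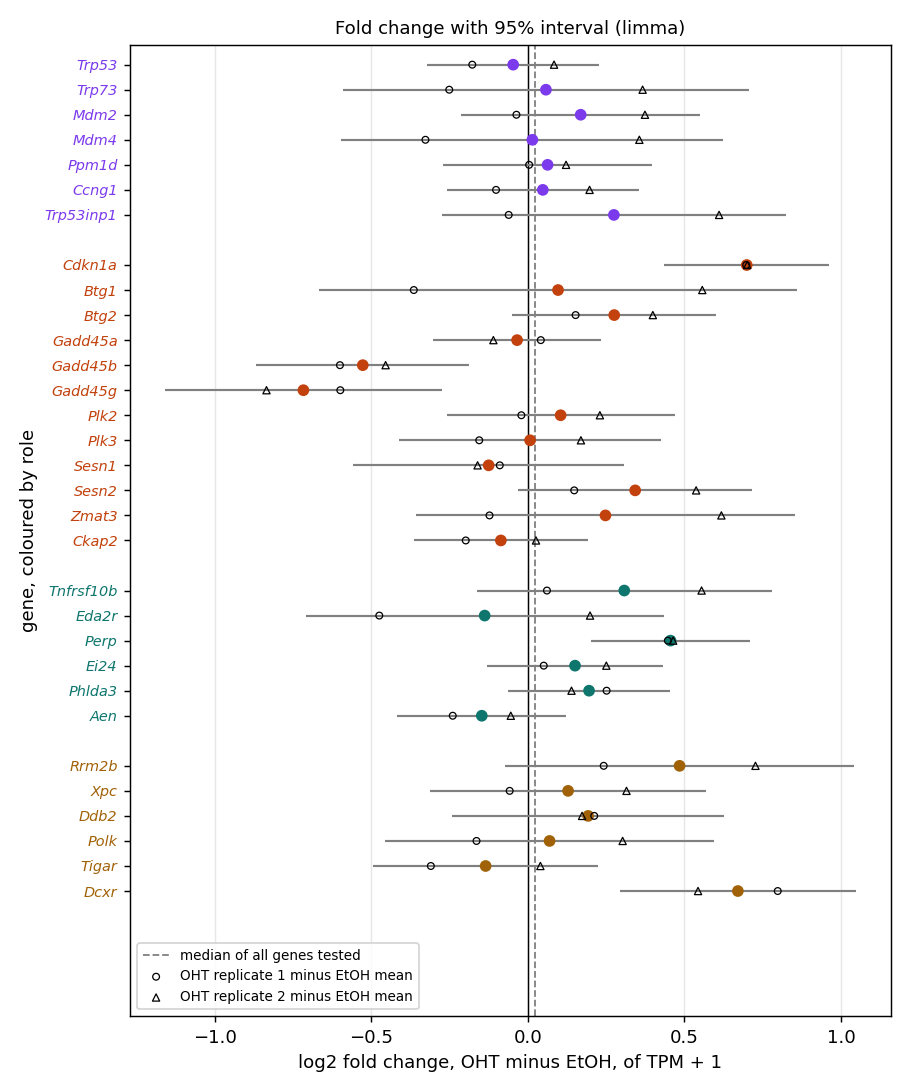
Log2 fold change of TPM + 1, OHT minus EtOH (horizontal), of the 31 genes tested (vertical, coloured by role); filled points are limma estimates, lines their 95% intervals, open circles and triangles OHT replicates 1 and 2 against the EtOH mean, and the dashed line the median of all genes tested (0.02). The intervals of Cdkn1a, Perp and Dcxr lie above 0 and those of Gadd45b and Gadd45g below it, and for most of the others the circle and the triangle stand far apart.

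Other genes of the pathway were read from a list of 42 that holds no gene of the 32, of which 41 were tested. None was called. An unadjusted p under 0.05 was reached by 6 of them as higher and 0 as lower, beside 6.02% of all genes tested as higher and 4.46% as lower. The OHT pair was wholly above the EtOH pair for 11 of the 41 and wholly below it for 1, where 23.1% and 19.4% of all genes tested were, and the median log2 fold change was 0.10. The 24 other targets held all 11 of these and all 6, with a median of 0.24, while the 17 upstream and core genes tested had a median of 0.01 and groups that overlapped for every gene. Gdf15, a secreted stress cytokine gene, read 20.7 and 23.3 TPM with OHT, against 8.17 and 8.66 TPM with EtOH (1.29, SE 0.16, limma adjusted p = 0.0995).

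The BH3-only death gene Pmaip1 read 70.5 and 82.8 TPM with OHT, against 37.3 and 39.9 TPM with EtOH (log2 fold change 0.97, SE 0.13, limma adjusted p = 0.107). Another BH3-only gene, Bbc3, read 67.7 and 69.8 TPM with OHT, against 55.5 and 47.6 TPM with EtOH (0.41, SE 0.12, adjusted p = 0.358). Ephx1, an epoxide hydrolase gene, read 19.5 and 20.9 TPM with OHT, against 11.3 and 10.8 TPM with EtOH (0.82, SE 0.15, adjusted p = 0.211). These 4 genes were named for their small p, so the fits that leave out 1 library are no further support for them. Over those fits the log2 fold change ran between 1.21 and 1.37 for Gdf15 and between 0.854 and 1.08 for Pmaip1. It ran between 0.305 and 0.522 for Bbc3 and between 0.770 and 0.862 for Ephx1. With either EtOH library left out, none of the 4 was called (adjusted p of 0.158 or more). Bax, an effector of mitochondrial death, overlapped at 443 and 394 TPM with OHT and 413 and 410 TPM with EtOH. Gdf15, Pmaip1, Cdkn1a and Perp had been read as higher in earlier results of the same libraries, so they are no independent support.

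Transcript length moved with the spread between replicates. OHT replicate 2 stood above OHT replicate 1 for 25 of the 31 genes (76.1% of all genes tested did so). EtOH replicate 2 stood above EtOH replicate 1 for 19 of the 31, and for 7535 of the 12029 genes tested. The median size of the gap on the log2 scale was 0.26 between OHT replicates and 0.08 between EtOH replicates. For all genes tested it was much the same, at 0.28 and 0.09. Across the 31 genes, which share the same libraries, the OHT gap followed log2 transcript length with Pearson r = 0.847 and Spearman rho = 0.833, and the EtOH gap with 0.249 and 0.208. Across 12016 genes tested the r values were 0.529 with OHT and 0.268 with EtOH. The 5 genes at an unadjusted p under 0.05 have longest transcripts of 914 to 2080 nucleotides, and 7 of the 31 are that short, the other two being Gadd45a and Phlda3. Below the median length of all genes tested (3271 nucleotides) 5 of 16 of the genes here had an unadjusted p under 0.05, beside 14.2% of all genes tested of that length. At or above it 0 of 15 did, beside 6.76%. The median SE of the fold change was 0.138 for the 16 shorter and 0.215 for the 15 longer genes. The part of length in these results was not tested beyond removing its trend.

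**Figure D4:**
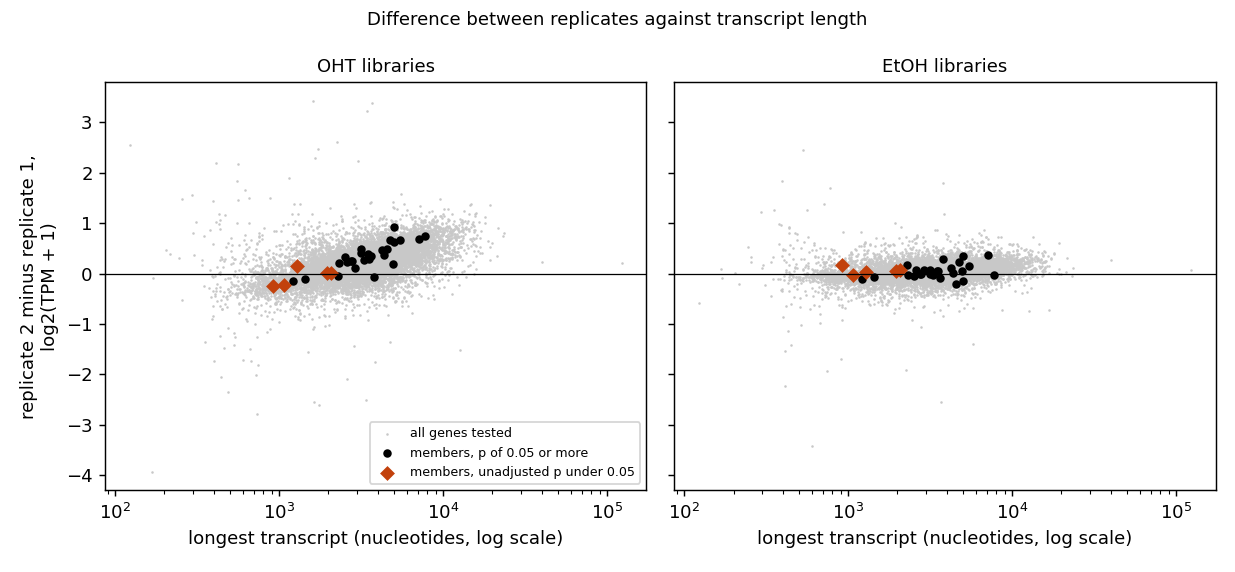
Replicate 2 minus replicate 1 in log2(TPM + 1) (vertical) against the longest transcript in nucleotides (horizontal, log scale) for OHT (left) and EtOH (right) libraries; grey dots are all genes tested, black dots the genes described here with an unadjusted p of 0.05 or more, orange diamonds those under it. In the OHT panel the gap of the 31 genes climbs with length (Pearson r = 0.847 over black dots and diamonds together), and the diamonds sit between 914 and 2080 nucleotides.

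When the trend with length and GC content was taken out of each library, the fold changes of the 5 genes kept their sign and stayed short of the threshold. They were 0.66 for Cdkn1a (limma adjusted p = 0.115), 0.49 for Perp (0.192), 0.64 for Dcxr (0.174), -0.57 for Gadd45b (0.262) and -0.76 for Gadd45g (0.150). None of the 31 was called, beside 0.375% of all genes tested. An unadjusted p under 0.05 was reached by 4 higher genes, with Rrm2b the added one, and by 2 lower ones, beside 7.39% and 4.54%. The OHT pair was wholly above the EtOH pair for 11 and wholly below it for 3, beside 25% and 18.6%. Among the other pathway genes Pmaip1 then passed (1.08, adjusted p = 0.0310), while Bbc3 stood at 0.28 with an unadjusted p of 0.0933.

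Sharing of reads is possible for some of these genes. No gene of the 32 had a near-identical copy among the transcripts of genes in the table, at 95% identity over 50% of a transcript. Exon bases of 8 genes are also covered by a gene on the opposite strand, and the labels leave the use of strand unstated. The share of exon bases was 23.8% for Ddb2 (with Acp2) and 19.1% for Gadd45a (with E230016M11Rik). It was 7.68% for Cdkn1a and 3.32% to 8.04% for Ei24, Plk3, Rrm2b, Tigar and Trp73, so the values of these 8 genes are uncertain.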

How the data were processed

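Poly(A) RNA was sequenced in 4 libraries, 2 per group. The deposited values are TPM. Per the submitters' processing notes the authors used Trim Galore, Salmon and the build GRCm38 (mm10), with no version or order given. Each column sums to 1000000. TPM keeps no depth, so depth is unknown and no counting interval was computed. The table holds 22266 genes and 2 further value columns, which belong to no sample here and were left out. The 12029 genes averaging 1 TPM or more were compared as log2(TPM + 1) with limma 3.58.1 in R 4.3.3 (mean-variance trend, two-sided, 2 residual and 4.01 prior degrees of freedom), with Benjamini-Hochberg adjustment and a threshold of 0.05. An exact permutation test of 2 against 2 cannot go below p = 0.333, so none was run.

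The genes and lists were chosen with earlier results of these data known, so no list was tested as a set. Values in every library are given for Trp53, Mdm2, Mdm4, Cdkn1a, every listed gene with an unadjusted p under 0.05 and those not tested, with others chosen after their values were seen. Of the other pathway genes under an unadjusted p of 0.05, the 4 with the smallest p in each direction are named, and Bax was named afterwards. Promoters were those of genes under an unadjusted p of 0.05 whose groups did not overlap, and Gadd45a was added to them. Perp has no entry in the promoter table. Gene coordinates, and the length and GC content of the longest transcript, are those of GENCODE's mouse release 21 (GRCm38). Of the table's identifiers 22213 matched it without version and 11 with it. Copies were searched for with blastn 2.17.0. Promoter windows come from RefSeq (GRCm38.p6), and 25 of the 32 genes matched. Alternatives were pseudocounts of 0.1, 0.5 and 5, no filter, a mean of 5 TPM or more, scaling by median of ratios, quantile normalization, no trend, robust moderation, a replicate block, removal of the length and GC trend by splines with 4 degrees of freedom, and leaving out each library.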

Additional observations from a re-analysis of the deposited data

How the results depend on the processing

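The count of genes past the threshold (5) was 0 without a filter on low values (1838 genes at an unadjusted p under 0.05), 3 each with median of ratios scaling, quantile normalization and limma without a trend, 45 with the length and GC trend removed, and between 34 and 2957 with 1 library left out. None of the genes described was called under the pseudocounts, filters, scalings, moderation settings or trend removal, and with 1 library left out their calls ranged between 0 and 15. With 1 library left out, the genes described whose OHT values were all higher numbered between 10 and 24 (10 as reported). Those whose OHT values were all lower numbered between 5 and 16 (3 as reported, and 6 with median of ratios scaling). With fewer libraries, groups of any gene are more easily free of overlap. The share of all genes tested is given neither for these fits nor for median of ratios scaling. No conclusion about the genes described is therefore drawn from any of these counts. Other pathway genes had 1 call with the length and GC trend removed and between 0 and 18 with 1 library left out. Leaving out OHT replicate 1 put the median of all genes at 0.14, and leaving out OHT replicate 2 put it at -0.09, beside 0.02.

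Replicate numbers are shared by the groups, but no label says that they mark a shared culture or day. Deviations of same-numbered libraries correlated across genes (r = 0.29). With the number as a replicate block, 474 genes were called (3.94% of all genes tested). Of these, 4 are described here (Cdkn1a, Perp, Dcxr and Gadd45g) and 3 are other pathway genes. The block leaves fewer residual degrees of freedom than the main fit, so its calls lean more on spread pooled over genes. With the replicate block and the length and GC trend removed, the counts were 647 (5.38% of all genes tested), 6 (with Gadd45b and Rrm2b) and 3. The trend removal turned Trp73 to -0.063, Gadd45a to 0.011, Plk3 to -0.071 and Ckap2 to 0.015, in that block fit too.

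Quantile normalization turned Trp53 to 0.012, Trp73 to -0.022, Gadd45a to 0.0067, Plk3 to -0.031 and Polk to -0.00062. Median of ratios scaling turned Mdm4 to -0.011 and Plk3 to -0.017. None of these genes was called under those settings. Leaving out 1 library turned more of them: Trp53 ranged between -0.18 and 0.084, Trp73 between -0.25 and 0.37, Mdm2 between -0.036 and 0.37, Mdm4 between -0.33 and 0.36, Ccng1 between -0.10 and 0.20, Trp53inp1 between -0.061 and 0.61, Btg1 between -0.36 and 0.56, Gadd45a between -0.11 and 0.042, Plk2 between -0.020 and 0.23, Plk3 between -0.15 and 0.17, Sesn1 between -0.27 and 0.017, Zmat3 between -0.12 and 0.62, Ckap2 between -0.20 and 0.026, Eda2r between -0.47 and 0.20, Xpc between -0.058 and 0.32, Polk between -0.16 and 0.30, and Tigar between -0.31 and 0.040. The cause was not tested. A minimum mean of 5 TPM left 28 of the 31 genes and no value for Cbx2. TPM gives no depth, so precision rests on 2 libraries a group.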
